A study of Arabidopsis thaliana with 9 samples.

Results

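PUB22 (AT3G52450), PUB23 (AT2G35930), PUB24 (AT3G11840), ATL2 (AT3G16720), ATL6 (AT3G05200) and ATL31 (AT5G27420) encode ubiquitin ligases, and their transcripts were followed in leaves of Arabidopsis thaliana. Leaves were taken before wounding (0 min) and at 30 and 60 min after it. The genes were selected by identifier, 6 of the 27206 genes in the count table, and all 6 passed the filter on low counts. All leaves came from wild-type Col-0 plants grown on soil in short days, and each time had 3 biological replicates. The series title joins wound healing with evaporative cooling. The labels list no unwounded leaves at 30 or 60 min, so the time after wounding and the time of day cannot be told apart. The labels do not say how leaves were wounded or how many plants a library holds.

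Ubiquitin ligases choose the proteins to which ubiquitin is attached, often to send them to the proteasome for breakdown. PUB22, PUB23 and PUB24 are U-box ligases that dampen immune signalling started by microbial patterns. PUB22 and PUB23 also act in drought responses, and PUB22 targets the exocyst subunit EXO70B2. ATL2, ATL6 and ATL31 are membrane ligases of the ATL family, which carries a RING-H2 finger. ATL2 was described as an early gene of the elicitor response. ATL6 and ATL31 set the seedling response to the balance of carbon and nitrogen through 14-3-3 proteins, and both act in defence.

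The 6 genes did not move as a block. At 30 min PUB23, PUB22 and ATL6 were higher than before wounding. At 60 min PUB22 was still higher, ATL2 was lower and the other 4 passed no test. At 30 min the name early-induced thus matched a call for PUB22, PUB23 and ATL6. The calls of PUB23 and ATL6 held in all 17 alternative fits, and that of PUB22 in 9. The data did not show a rise of ATL2, whose lower level at 60 min was called in 12 of the 17. No change of PUB24 or ATL31 was called.

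Replicate 1 at 30 min was the shallowest library with 14300929 counts in all, and the others held 22072126 to 22970735. Levels are in CPM, the count scaled to the TMM-adjusted total of its library. The floor of 3 counts lay between 0.114 and 0.209 CPM, and every member was above that floor in every library. The lowest count of a member was 5, for ATL31. Leaf mesophyll markers were abundant, with at least 1080 CPM for each of RBCS1A, LHCB1.1, CAB3, LHCB2.1 and GLDP1. The root markers TIP2;3, CASP1 and EXPA7 reached at most 4 counts and the flower and seed markers AP3, AG, CRA1 and OLEO1 at most 9. A further root marker, PYK10, ran from 6.77 to 27.9 CPM, and its part in the results was not tested. Whole leaf was measured, so a change in the share of a cell type and a change in RNA per cell cannot be told apart.

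The upstream sequences of 4 members are shown because PUB22 and PUB23 are close relatives that took different courses, and because ATL6 rose while ATL2 fell. Each is the 250 bases before the annotated gene start, read 5′ to 3′ on the coding strand of the TAIR10.1 assembly with its RefSeq annotation. Capitals mark matches to the W-box core TTGAC, which WRKY factors bind, and to the G-box CACGTG, in either orientation.
PUB22, chr3:19442428-19442677, minus strand: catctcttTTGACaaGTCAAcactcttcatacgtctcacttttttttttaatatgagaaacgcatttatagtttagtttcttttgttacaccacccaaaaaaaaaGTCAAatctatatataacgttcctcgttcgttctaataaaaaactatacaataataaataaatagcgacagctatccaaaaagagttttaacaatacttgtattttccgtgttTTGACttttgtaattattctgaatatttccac
PUB23, chr2:15084560-15084809, minus strand: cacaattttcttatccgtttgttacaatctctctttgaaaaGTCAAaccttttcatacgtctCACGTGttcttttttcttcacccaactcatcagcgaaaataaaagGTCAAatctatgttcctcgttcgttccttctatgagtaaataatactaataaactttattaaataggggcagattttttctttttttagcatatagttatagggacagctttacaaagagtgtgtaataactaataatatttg
ATL6, chr3:1476710-1476959, plus strand: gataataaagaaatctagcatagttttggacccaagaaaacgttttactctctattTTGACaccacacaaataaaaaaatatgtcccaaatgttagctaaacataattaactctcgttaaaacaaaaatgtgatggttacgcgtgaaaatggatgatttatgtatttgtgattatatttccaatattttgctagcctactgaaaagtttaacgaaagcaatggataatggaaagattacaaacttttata
ATL2, chr3:5692357-5692606, plus strand: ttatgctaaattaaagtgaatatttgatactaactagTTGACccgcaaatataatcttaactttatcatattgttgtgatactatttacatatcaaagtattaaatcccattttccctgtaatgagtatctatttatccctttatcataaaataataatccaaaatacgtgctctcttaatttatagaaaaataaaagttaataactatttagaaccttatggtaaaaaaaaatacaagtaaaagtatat

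The PUB22 window held 4 matches to the W-box core, counted on both strands, and the PUB23 window held 2. PUB24, ATL2 and ATL6 had 1 each and ATL31 had 0. Of 26718 windows of this length in the annotation, 45.0% held at least 1 match and 0.734% held at least 4. A G-box stood before PUB23, PUB24 and ATL31, with 1 match each, against 6.58% of all windows. The GCC-box GCCGCC was found before PUB24 alone among the 6, against 1.85% of all windows. The dehydration responsive core CCGAC (11.9% of all windows) and the rapid stress response element CGCGTT (2.59%) had 0 matches in the 6 windows. No match overlapped another. A match describes letters in a window and is not evidence of binding. In PUB24 the annotated gene begins at its coding sequence, so its window may include transcribed bases.

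The windows of PUB22 and PUB23 shared 2 runs of at least 12 bases in the same orientation. The first, ttcatacgtctcac, began 225 bases before PUB22 (chromosome 3) and 199 bases before PUB23 (chromosome 2). The second, gttcctcgttcgttc, began 127 and 132 bases before these genes. The windows of ATL6 and ATL31 shared no such run.

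**Figure D1:**
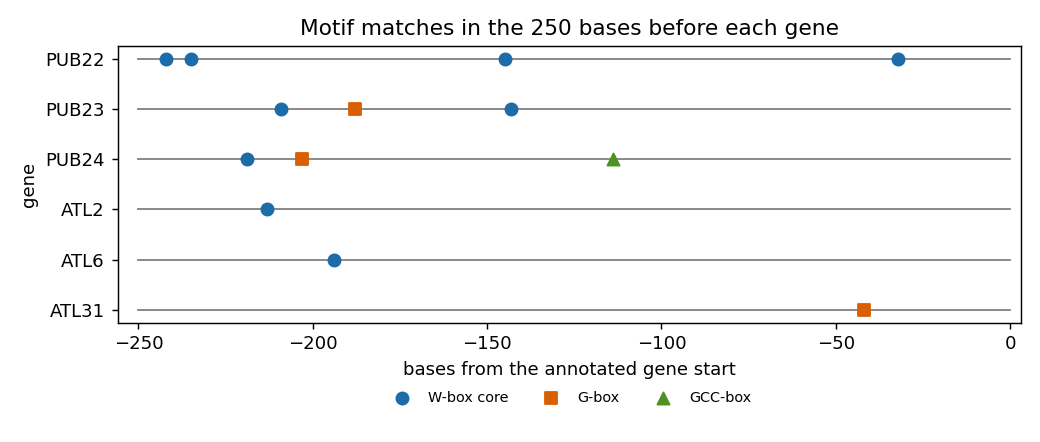
Positions of motif matches in the 250 bases before each of the 6 genes, drawn as distance from the annotated gene start in bases. Circles are W-box cores, squares G-boxes and the triangle a GCC-box; the 4 W-box cores of PUB22 lie between 242 and 32 bases before the gene.

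Among the coding sequences 2 pairs stood out. PUB22 and PUB23 had 80.8% identical bases over 1221 aligned coding bases, and ATL6 and ATL31 had 77.1% over 1092. PUB24 had 63.4% with PUB22 and 61.7% with PUB23, and ATL2 had 62.3% with ATL6 and 63.7% with ATL31. U-box and ATL genes, of different families, reached 57.8% to 64.2% in the same end-to-end alignments. Values in that range therefore cannot tell a distant relative from an unrelated gene. No stretch of 50 bases in the exons of a member occurred in the exons of a gene elsewhere in the genome. In TAIR10.1, PUB23 overlaps AT2G35935 on the opposite strand, and the use of strand in the counting is not given in the sources used here. The overlap may therefore have added reads to the PUB23 counts or removed reads from them. PUB22, ATL2, ATL6 and ATL31 each have 1 exon, as does PUB23, and PUB24 has 2.

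Of the U-box genes, PUB22, which ubiquitinates EXO70B2 among others, had 3.77, 3.48 and 4.37 CPM before wounding. It then had 7.59, 9.51 and 5.34 CPM at 30 min and 10.3, 4.77 and 11.7 CPM at 60 min (replicates 1, 2 and 3). All 6 libraries from wounded leaves stood above all 3 from before wounding, and the spread widened with time, mostly because replicate 2 at 60 min was low. PUB22 was higher at 30 min by a log2 fold change of 0.95 (SE 0.32), 1.93-fold, with an edgeR quasi-likelihood adjusted p of 0.0421. At 60 min it was higher by 1.21 (SE 0.32), 2.31-fold, with an edgeR adjusted p of 0.0109. Between 30 and 60 min no change was called (0.26, SE 0.31, edgeR adjusted p 0.825).

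The rise of PUB22 at 30 min stood close to the threshold. Its edgeR adjusted p was 0.0998, 0.138 and 0.081 without before-wounding replicate 1, 2 or 3, 0.0964 and 0.15 without 30 min replicate 1 or 2, and 0.0551 without 60 min replicate 1. It was 0.106 with limma-voom and 0.0732 with the replicate number as a block. The log2 change ran from 0.73 to 1.16 when any library was left out. The rise at 60 min held with all other tests and scalings tried, and its adjusted p was 0.0518 without before-wounding replicate 2 and 0.0532 without 60 min replicate 3.

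PUB23, the closest relative of PUB22, had 5.79, 2.56 and 4.57 CPM before wounding, 14.1, 16.1 and 9.81 CPM at 30 min and 4.18, 2.99 and 7.93 CPM at 60 min. The 30 min libraries lay above all others, and those from 60 min and from before wounding overlapped. PUB23 rose 3.08-fold by 30 min, a log2 change of 1.62 (SE 0.36, edgeR adjusted p 0.00441), the largest of the 6 genes at that time, and the call held in all 17 alternatives. At 60 min its log2 difference from before wounding was 0.22 (SE 0.36, edgeR adjusted p 0.687). Between 30 and 60 min the difference was -1.40 (SE 0.36), with an unadjusted p of 0.00164 and an edgeR adjusted p of 0.0656, outside the threshold. That difference passed it with DESeq2 (adjusted p 0.00617), with limma-voom (0.0326), with no filter on low counts (0.0241), without 30 min replicate 3 (0.0442) and without 60 min replicate 3 (0.01).

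PUB24, the third U-box gene of this group, was scarcer, with 17 to 30 counts a library before wounding. Its levels were 1.32, 0.822 and 1.05 CPM before wounding, 2.16, 2.33 and 2.26 CPM at 30 min and 0.603, 0.985 and 1.82 CPM at 60 min. The 30 min libraries were close to each other and above all the rest. Its log2 difference at 30 min was 1.07 (SE 0.44), as large as that of PUB22, but with an edgeR adjusted p of 0.0882 and so no call. A fit to the 30 min and before-wounding libraries alone gave 0.0477. At 60 min it stood 0.09 from before wounding (SE 0.45, edgeR adjusted p 0.905) and -0.99 from 30 min (SE 0.44, adjusted p 0.369), where no library overlapped.

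**Figure D2:**
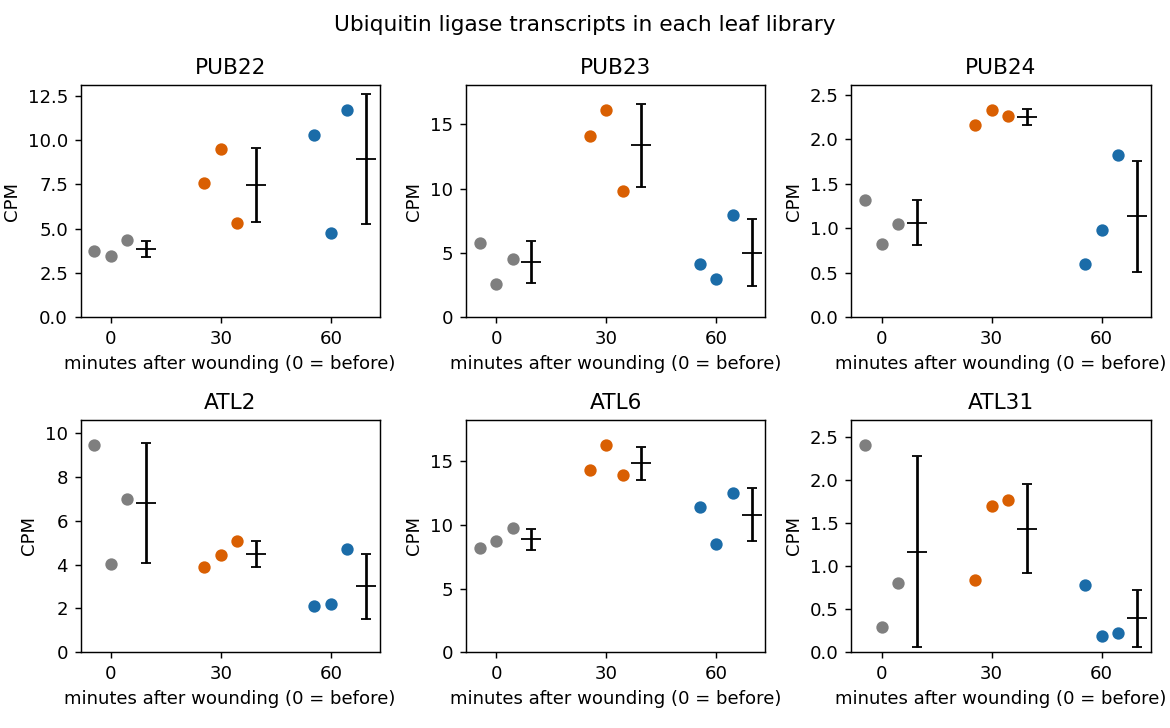
CPM of each of the 6 genes (vertical axes from 0, each with its own scale) in the 9 libraries, by minutes after wounding. Points are libraries and bars the mean with its SD; PUB23, PUB24 and ATL6 are highest at 30 min, PUB22 stays up at 60 min, and ATL2 is lowest at 60 min.

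Of the ATL genes, ATL6, a ligase of the carbon and nitrogen response, was the most abundant and the most even. It had 8.16, 8.70 and 9.74 CPM before wounding, 14.3, 16.3 and 13.9 CPM at 30 min and 11.4, 8.49 and 12.5 CPM at 60 min. All 30 min libraries lay above all others, while the 60 min libraries overlapped those from before wounding. ATL6 rose 1.67-fold by 30 min (log2 0.74, SE 0.19, edgeR adjusted p 0.00912), and this call held in all 17 alternatives. At 60 min the log2 difference was 0.28 (SE 0.19, edgeR adjusted p 0.267), which was called with scaling by library size alone (0.49, adjusted p 0.0396). From 30 to 60 min it differed by -0.46 (SE 0.18, edgeR adjusted p 0.303).

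ATL2, described as an early gene of the elicitor response, went the other way. Its levels were 9.47, 4.01 and 6.98 CPM before wounding, 3.90, 4.42 and 5.09 CPM at 30 min and 2.11, 2.2 and 4.69 CPM at 60 min. The groups overlapped, because replicate 2 from before wounding was low and replicate 3 at 60 min was high. At 30 min the log2 difference was -0.61 (SE 0.35, edgeR adjusted p 0.229). At 60 min ATL2 fell by 1.19 on the log2 scale (SE 0.36), to 0.439 of its level before wounding, with an edgeR adjusted p of 0.0219. This call was lost without before-wounding replicate 1 (-0.88, adjusted p 0.11) or 3 (0.0565), without 60 min replicate 1 (0.0871) or 2 (0.0651), and with library size alone (0.0579).

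ATL31, the close relative of ATL6, had 55, 6 and 16 counts before wounding, 12, 35 and 43 counts at 30 min and 18, 5 and 5 counts at 60 min. In CPM these were 2.41, 0.290 and 0.803 before wounding, 0.835, 1.70 and 1.77 at 30 min and 0.776, 0.189 and 0.221 at 60 min. Replicate 1 from before wounding was 8.32 times replicate 2 of the same group, the widest spread of any member. The log2 differences were 0.30 (SE 0.69) at 30 min and -1.57 (SE 0.75) at 60 min, with edgeR adjusted p-values of 0.79 and 0.129. Without before-wounding replicate 1 these were 1.40 (adjusted p 0.207) and -0.47 (adjusted p 0.693), and without before-wounding replicate 2 they were -0.17 and -2.04. The 60 min difference was -2.49 without 60 min replicate 1. From 30 to 60 min the difference was -1.87 (SE 0.75), with all 60 min libraries below all 30 min libraries and an edgeR adjusted p of 0.301, and it was -2.79 without 60 min replicate 1. Changes of ATL31 were not detectable at this depth and spread.

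**Figure D3:**
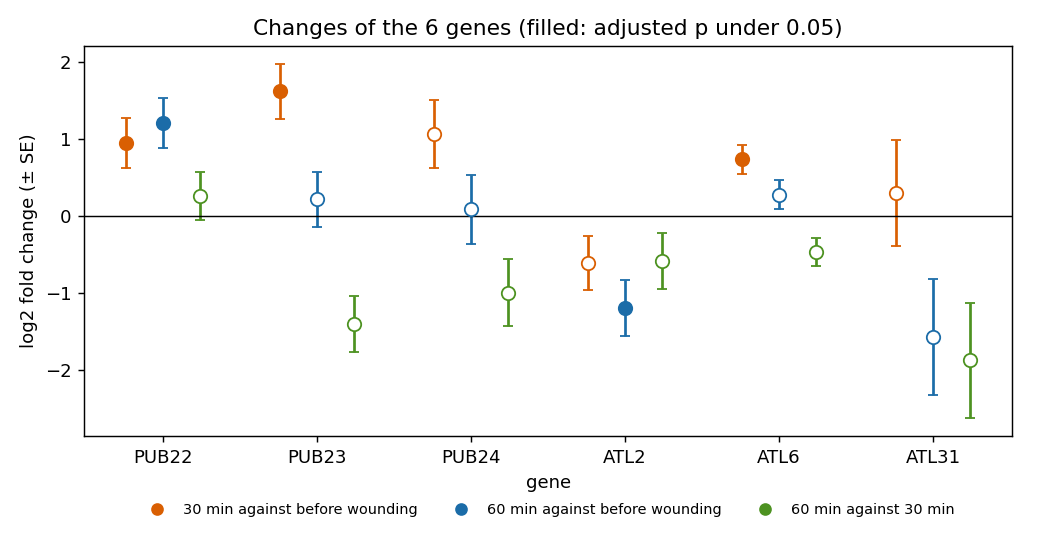
Log2 fold change of each gene in the 3 comparisons with its SE; filled points have an adjusted p under 0.05. At 30 min PUB22, PUB23 and ATL6 are filled, at 60 min PUB22 and ATL2, and between 30 and 60 min none of the 6.

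Counted over the 6 genes, 3 were called higher and 0 lower at 30 min, where 14.5% of all 17622 tested genes were called higher and 13.4% lower. At 60 min 1 was called higher and 1 lower, against 17.1% and 15.3% of all tested genes, shares like the background. Between 30 and 60 min 0 of the 6 were called with edgeR, where 0.721% of all genes were called higher, 1.3% lower and 2.02% in either direction, although 4 had an unadjusted p under 0.05, as did 12.5% of all genes. DESeq2 called 1 of them and limma-voom 1, in each case PUB23. In 4 of the 6 all 30 min libraries lay above all before-wounding libraries, as did 21.8% of all genes, and in 0 all lay below (21.5% of all genes). At 60 min PUB22 alone had all its libraries above those from before wounding (24.8% of all genes), and 0 had all below (22.5%). In 4 of the 6 all 60 min libraries lay below all 30 min libraries, as did 8.03% of all genes, and 0 had all above (8.18%). An F test over the 3 times called PUB22 (edgeR adjusted p 0.0256), PUB23 (0.00431) and ATL6 (0.0193), against 32.1% of all genes, and gave 0.0539 for ATL2. The members, like the gene lists below, were chosen with earlier results of these data known. Their counts beside the shares of all genes are therefore a description and no test of enrichment.

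Per kilobase of exon, a scale on which genes can be compared, ATL6 was the most abundant member at each time. Before wounding ATL6 had 4.69 ± 0.424 CPM per kb and ATL2 4.33 ± 1.74, followed by PUB23 with 2.53 ± 0.956 and PUB22 with 2.14 ± 0.249 (SD, n = 3). PUB24 with 0.776 ± 0.180 and ATL31 with 0.666 ± 0.631 came last. Of the neighbours in this order, PUB22 and PUB24 did not overlap and all the others did.

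At 30 min ATL6 had 7.84 ± 0.669 CPM per kb and PUB23 7.81 ± 1.87, with overlapping libraries, and PUB22 came next with 4.13 ± 1.15. ATL2 (2.84 ± 0.379), PUB24 (1.64 ± 0.063) and ATL31 (0.817 ± 0.296) followed in that order. At 60 min ATL6 (5.71 ± 1.1) and PUB22 (4.94 ± 2.03) led, ahead of PUB23 (2.95 ± 1.51) and ATL2 (1.91 ± 0.932). ATL31 was last at each time and had 0.225 ± 0.188 CPM per kb at 60 min. By this scale ATL6 stood at percentile 48.8 of the 17611 tested genes with a length before wounding and ATL31 at percentile 12.

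Whether relatives differed in their course was asked with the ratio of their counts within each library, which needs no scaling between libraries. The ratio of PUB22 to PUB23 was 0.653, 1.36 and 0.956 before wounding, 0.541, 0.593 and 0.545 at 30 min and 2.47, 1.59 and 1.48 at 60 min. PUB23 thus outnumbered PUB22 in every 30 min library and PUB22 outnumbered PUB23 in every 60 min library, and the 3 times did not overlap. Over the 3 times the ratio differed with p = 0.00357 in an exact permutation test over the 9 libraries, the smallest p that the test can give, and 0.025 after adjustment over 7 ratios. The effect of the locus that overlaps PUB23 on this ratio was not tested.

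The ratio of PUB22 to PUB24 also changed, lying between 2.84 and 4.14 before wounding, 2.35 and 4.05 at 30 min, and 4.77 and 16.6 at 60 min (exact permutation p 0.0179, adjusted 0.0312). For PUB23 to PUB24 no difference was shown (exact permutation p 0.332), and both were highest at 30 min. ATL2 fell relative to ATL6, with ratios between 0.463 and 1.16 before wounding, 0.273 and 0.367 at 30 min, and 0.187 and 0.376 at 60 min (exact permutation p 0.0179, adjusted 0.0312). No difference was shown for ATL6 to ATL31 or ATL2 to ATL31 (exact permutation p 0.232 and 0.275). The summed counts of the U-box genes were between 0.529 and 0.571 of those of the ATL genes before wounding, 0.838 and 1.25 at 30 min, and 0.805 and 1.23 at 60 min (exact permutation p 0.0179, adjusted 0.0312). With 1 library left out the call for PUB22 to PUB23 was lost in 6 of 9 cases, with an adjusted p of up to 0.125 (without 30 min replicate 1), and each of the other 3 calls was lost in 8 of 9.

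**Figure D4:**
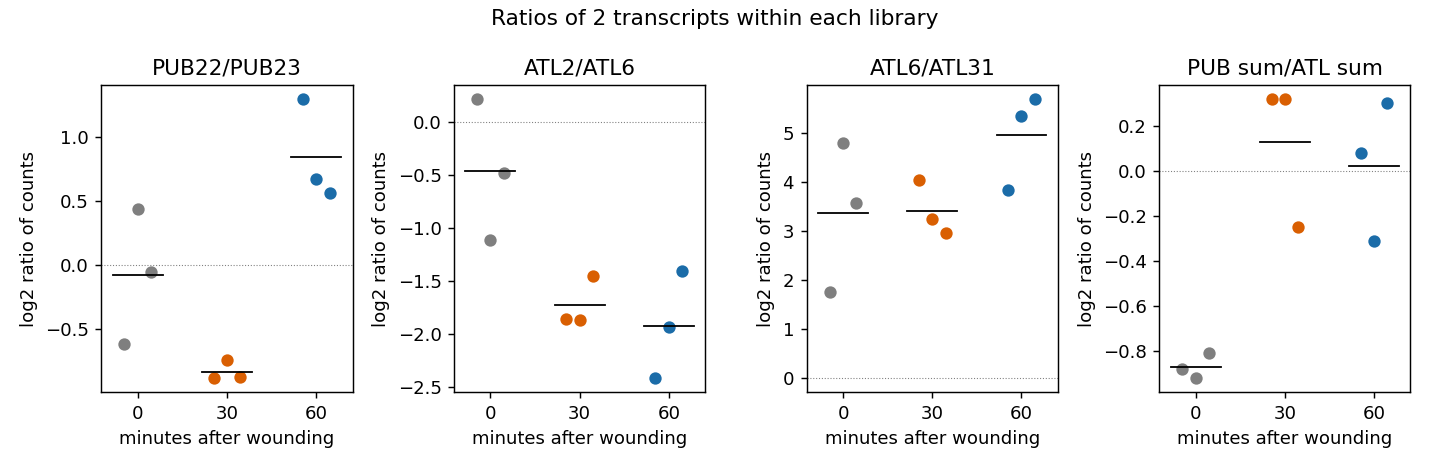
Log2 ratio of counts within each library for 4 pairs, by minutes after wounding; points are libraries and lines the mean of 3. PUB22/PUB23 lies below 0 in all 30 min libraries and above 0 in all 60 min libraries, and PUB sum/ATL sum is lowest before wounding.

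Before wounding and at 60 min most of the 6 genes were high or low in the same libraries. Replicate 3 at 60 min was the highest of its group for 5 of the 6, and replicate 2 was the lowest for 4. Before wounding replicate 2 was the lowest for 5 and replicate 1 the highest for 4. The 30 min group was split: replicate 2 was the highest for 4, replicate 3 was the highest for 2 and the lowest for 3, and replicate 1 was the lowest for 3. As a description over the 9 libraries, which share their scaling, deviations from the group means correlated with Pearson r from -0.04 (PUB24 and ATL31) to 0.93 (PUB22 and ATL6), and 14 of the 15 pairs were positive. Over the whole levels the highest r was 0.89, for PUB23 and PUB24, and the lowest -0.39, for PUB22 and ATL2.

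Genes whose log2 CPM over the 9 libraries was most like that of each member were taken as a description, and Pearson r over 9 libraries that share groups can be high for any gene that moved in the same way. For PUB22 the nearest was FLA13, a fasciclin-like arabinogalactan protein of the cell wall (r = 0.989), with 95.9 ± 12.8, 169 ± 43.7 and 196 ± 68.2 CPM at 0, 30 and 60 min. For PUB23 it was PUP14, a cytokinin transporter (r = 0.982), with 41.5 ± 9.39, 92.6 ± 26.7 and 44.9 ± 16.7 CPM at the 3 times. PUP14 lies opposite part of another gene.

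PUB24 had the NAC transcription factor ATAF1 (r = 0.952) among its 3 nearest, with 15.7 ± 3.74, 45.7 ± 2.21 and 16.5 ± 6.17 CPM, and ATAF1 too overlaps genes on the opposite strand. The nearest to ATL6 were AT3G57450 (r = 0.991) and AT1G09250 (r = 0.986). Behind them came the ubiquitin-conjugating enzyme gene UBC19 (r = 0.985), with 34.6 ± 3.18, 52.7 ± 3.35 and 40.5 ± 4.67 CPM. The nearest to ATL2 was emb2734 (r = 0.956), with 36.2 ± 6.10, 33.8 ± 2.06 and 28.8 ± 2.40 CPM, and to ATL31 the cytochrome P450 gene CYP71B13 (r = 0.916), with 7.31 ± 1.45, 8.11 ± 0.954 and 6.37 ± 0.520 CPM.

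Among 18 other tested plant U-box genes, of 20 named as such in the annotation, 5 were higher and 2 lower at 30 min, and 7 were higher and 2 lower at 60 min. Their median log2 difference was 0.46 at 30 min and 0.37 at 60 min, beside 0.02 and 0.06 for all tested genes. Of all tested genes 14.5% were called higher and 13.4% lower at 30 min, and 17.1% and 15.3% at 60 min. The number of U-box genes called lower was thus near the background. This list holds only genes with a PUB name and number in the annotation, so it may not cover the whole family. PUB45 averaged 16.6 ± 0.764, 41.9 ± 5.21 and 53.9 ± 7.28 CPM at 0, 30 and 60 min (SD, n = 3) and rose by a log2 of 1.34 at 30 min (edgeR adjusted p 2.78e-05) and of 1.70 at 60 min (3.38e-06), SE 0.15 for both. PUB26, which with PUB25 limits the immune kinase BIK1, had 21.7 ± 2.1, 11.8 ± 0.957 and 7.64 ± 0.660 CPM at the 3 times, with a log2 change of -1.51 by 60 min (SE 0.16, edgeR adjusted p 1.64e-05). PUB18, named after its values were seen, rose by a log2 of 4.02 at 30 min (SE 0.5, edgeR adjusted p 5.40e-05), more than any of the 6 members. It started from 0.435 ± 0.322 CPM before wounding, near the floor, so the size of this change is uncertain.

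Of 9 other tested ATL genes, of 10 named as such, 0 were higher and 1 lower at 30 min with edgeR, while at 60 min edgeR, DESeq2 and limma-voom each called 0. The edgeR p before adjustment was under 0.05 for 1 of them at 60 min. Their medians were -0.09 and 0.09. The shares of all tested genes were 14.5% higher and 13.4% lower at 30 min, and 17.1% and 15.3% at 60 min. For so few genes the counts at 30 min were near the background. The list holds only genes with an ATL name and number in the annotation. It may not cover the whole family, so these counts do not describe the family as such. A further gene with the symbol ATL5, AT3G25520, is named a ribosomal protein in the annotation and was left out after its values were seen. It was lower at both times (log2 -0.90 and -0.97, SE 0.18 each, edgeR adjusted p 0.00235 and 0.00126), so that with it 2 genes would be lower at 30 min and 1 at 60 min. The gene called was ATL3 (log2 -0.76 at 30 min, SE 0.23, edgeR adjusted p 0.0241). ATL78 had 2.50, 1.80 and 4.10 CPM on average at the 3 times and passed no test (log2 -0.44 at 30 min and 0.71 at 60 min, edgeR adjusted p 0.428 and 0.156).

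**Figure D5:**
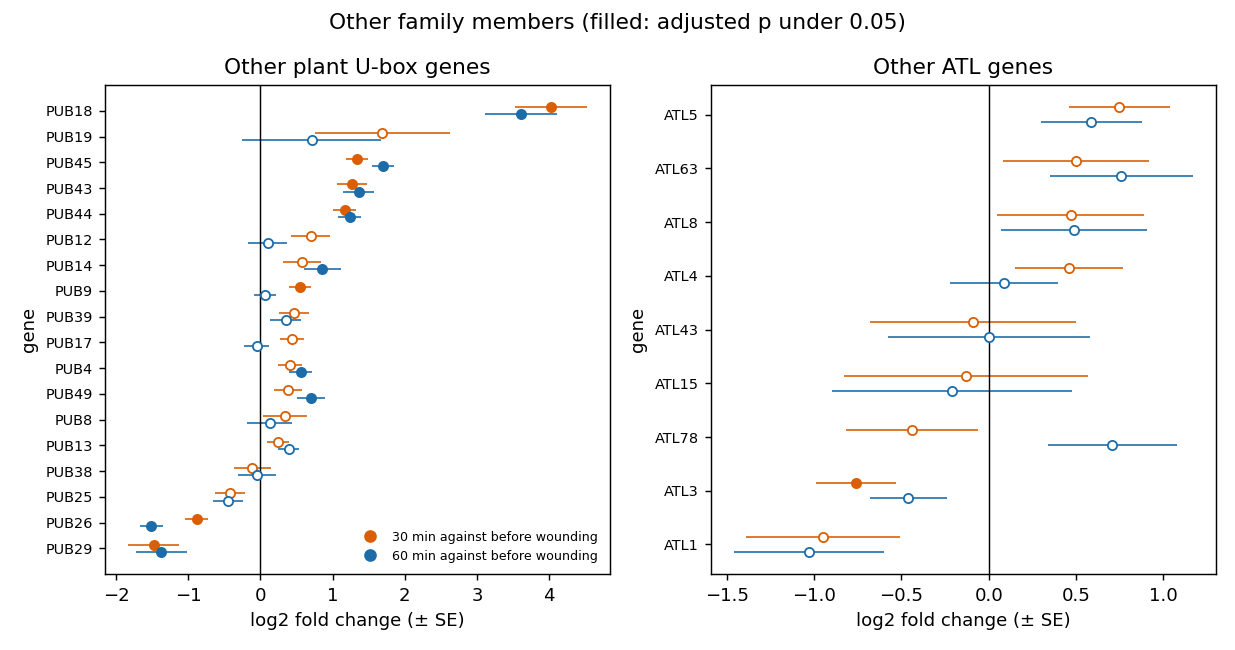
Log2 fold change with its SE at 30 and 60 min against before wounding. Shown are the other tested genes with a PUB name (left) or an ATL name (right) and a number in the annotation. Filled points have an adjusted p under 0.05. PUB18 lies farthest to the right, PUB29 and PUB26 farthest to the left, and of the ATL genes 1 point is filled.

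The steps before and after a ligase were compared by lists. The lists here and below were chosen with earlier results of these data known, so their counts are a description. Of 19 genes for ubiquitin, its activation and its conjugation, 7 were higher at 30 min and 9 at 60 min, with 0 lower at either time, and medians of 0.20 and 0.39. The share of all tested genes called higher was 14.5% at 30 min and 17.1% at 60 min, and the share called lower 13.4% and 15.3%. The conjugating enzyme gene UBC3 averaged 18.6 ± 0.733, 53.2 ± 5.83 and 44.7 ± 4.10 CPM at the 3 times (log2 1.51 and 1.26, SE 0.14 each, edgeR adjusted p 5.34e-06 and 2.04e-05). UBC3 lies opposite part of another gene. The polyubiquitin gene UBQ11 rose by a log2 of 1.61 at 30 min and 1.38 at 60 min (SE 0.17 each, edgeR adjusted p 1.56e-05 and 5.02e-05). Polyubiquitin genes resemble each other, so their counts are uncertain. Of 28 tested genes of the proteasome regulatory particle, 1 was higher at each time, a smaller share than the 14.5% and 17.1% of all tested genes, and the medians were 0.06 and 0.01. This was RPT3, higher by 0.46 and 0.56 (SE 0.16 each, edgeR adjusted p 0.0428 and 0.0136). RPT4B passed no test (log2 -0.31 and -0.35, edgeR adjusted p 0.125 and 0.0721).

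Of 19 known partners and substrates of the members, 8 were higher and 2 lower at 30 min and 6 were higher and 1 lower at 60 min. Their medians were 0.35 and 0.08, beside 14.5% of all tested genes higher and 13.4% lower at 30 min. At 60 min 17.1% of all tested genes were called higher, 15.3% lower and 32.4% in either direction. Summed over both directions the 7 called of 19 were near the background, though 6 of the 7 were higher. DESeq2 and limma-voom each called 6 higher and 2 lower at 60 min. Between 30 and 60 min edgeR called 2 higher and 1 lower, and DESeq2 2 and 3. Of all tested genes edgeR called 0.721% higher and 1.3% lower in that comparison. The syntaxin SYP121, with which ATL31 associates, had 14.8 ± 2.50, 58.7 ± 4.2 and 35.1 ± 11 CPM at the 3 times (log2 1.99, SE 0.22, edgeR adjusted p 2.04e-05 at 30 min). CIPK14, a kinase that phosphorylates ATL31, had log2 changes of -2.45 at 30 min and -1.46 at 60 min (SE 0.20 and 0.19, edgeR adjusted p 1.73e-06 and 7.75e-05). From 30 to 60 min CIPK14 was higher by 0.99 (SE 0.20, edgeR adjusted p 0.0176). The PUB22 substrate EXO70B2, named after its values were seen, rose by 2.50 at 30 min (edgeR adjusted p 2.65e-05) and 2.08 at 60 min (adjusted p 9.92e-05).

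Of 15 genes of pattern-triggered immunity, the process that PUB22, PUB23 and PUB24 restrain, 10 were higher and 0 lower at 30 min, with a median of 1.01, where 14.5% of all tested genes were called higher and 13.4% lower. At 60 min 7 were higher and 1 lower, with a median of 0.75, beside 17.1% and 15.3% of all tested genes. DESeq2 and limma-voom each called 7 higher and 2 lower at 60 min. Between 30 and 60 min edgeR called 0 higher and 3 lower, where 0.721% of all tested genes were higher and 1.3% lower. DESeq2 called 2 higher and 4 lower in that comparison. The flagellin receptor gene FLS2, which lies opposite part of another gene, averaged 12.9 ± 2.22, 29.8 ± 5.89 and 46.4 ± 4.17 CPM at the 3 times. It rose by a log2 of 1.21 at 30 min and 1.84 at 60 min (SE 0.18 each, edgeR adjusted p 0.000258 and 7.86e-06). The Pep receptor gene PEPR1 averaged 16.5, 59.0 and 35.3 CPM and rose by a log2 of 1.84 at 30 min (edgeR adjusted p 1.09e-05) and of 1.1 at 60 min (0.000554), SE 0.19 for both. MPK3, a kinase that phosphorylates PUB22 and stands in both of these lists, was named after its values were seen. It rose by 1.01 at 30 min (edgeR adjusted p 0.00041), with -0.19 at 60 min (adjusted p 0.388). From 30 to 60 min MPK3 differed by -1.20 (SE 0.16, edgeR adjusted p 0.00155).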

How the data were processed

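Polyadenylated RNA of 9 leaf samples was sequenced. The deposited values are raw counts of reads for each gene, not normalized by the authors, and 0 columns of the table belonged to no sample. The submitters' processing notes list FastQC 0.11.8, Trimmomatic 0.36, HISAT2 2.2.0, featureCounts and the TAIR10 build. The annotation and the use of strand are not given in the sources used here. Names, exon lengths and sequences came from TAIR10.1 and its RefSeq annotation, and coordinates are of that assembly.

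The test was edgeR's quasi-likelihood F test (edgeR 4.0.16, R 4.3.3) in 1 fit to all 9 libraries, with the group as the only term (filterByExpr, TMM, glmQLFit, glmQLFTest). P-values were two-sided and adjusted by Benjamini-Hochberg over 17622 genes, with a threshold of 0.05. The SE is the absolute log2 change divided by the square root of F. The test was checked on simulated data. DESeq2 1.42.0, limma-voom, other scalings and filters, fits to 2 groups, a replicate block and leaving out each library were alternatives. Ratios had 0.5 added to each count, and the exact permutation test of the F statistic counts departures in any direction.

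The members and lists were chosen with earlier results of these data known. Besides the members, the text names the 2 genes of each list with the smallest F test p, and up to 3 genes of highest Pearson correlation with a member (prior count 2, at least 20 counts where highest). PUB18, EXO70B2 and MPK3 were named outside this rule, after their values were seen; PUB29 is named in a caption on the same footing. The list of ATL genes departs from its symbol rule by 1 gene, AT3G25520. Replicates differed by more than counting noise (chi-square per degree of freedom 6.91 to 41.1).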

Additional observations from a re-analysis of the deposited data

How the results depend on the processing

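PUB23 and ATL6 at 30 min were called in all 17 alternatives, PUB22 at 60 min in 15, ATL2 at 60 min in 12 and PUB22 at 30 min in 9. The number of members called at 30 min, 3, was 2 with limma-voom, 2 with the replicate block and 4 in the fit to 2 groups. It ran from 2 to 3 when a library was left out. The number called at 60 min against before wounding, 2, ran from 1 to 2 when a library was left out. With library size alone the 2 called at 60 min were PUB22 and ATL6, both higher, and ATL2 was not called. Between 30 and 60 min, where edgeR called 0, 1 member was called with no filter on low counts, 1 with DESeq2 and 1 with limma-voom. Leaving out a library gave 0 to 1 in that comparison. The count of all genes called in that comparison, 356, was 681 with DESeq2, 223 with the replicate block and 161 to 480 when a library was left out. Library size alone put 61.3% and 70.9% of called genes higher at 30 and 60 min, against 51.9% and 52.9% with TMM, and moved the median of all genes to 0.12 and 0.28.

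Signs changed only where no call was made. PUB24 at 60 min against before wounding, 0.09, was -0.05 with limma-voom and -0.44 to 0.39 when a library was left out. The range was -0.29 to 0.49 for PUB23 at 60 min and -0.17 to 1.40 for ATL31 at 30 min. With the replicate block, permuted within replicate number, the adjusted p was 0.146 for the ratios PUB22/PUB23, PUB22/PUB24, ATL2/ATL6 and PUB sum/ATL sum. The smallest raw p such assignments can give is 0.0278, which PUB22/PUB23 reached. With AT3G25520 kept, an alternative added after seeing the data, 2 other ATL genes were called at 30 min and 1 at 60 min, against 1 and 0 without it. Leaving out a library gave adjusted p-values of 0.025 to 0.125 for PUB22/PUB23, 0.0438 to 0.161 for PUB22/PUB24, 0.0438 to 0.125 for ATL2/ATL6 and 0.0438 to 0.125 for PUB sum/ATL sum. Deviations of same-numbered libraries correlated from -0.365 to 0.156, above 0.1 in 2 of 9 pairs. These values cannot decide whether the replicate numbers pair the samples, because deviations from the mean of so small a group depend on each other. The low counts of ATL31 and PUB24 limit what their tests could detect.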
